A study of Mus musculus with 9 samples.

Results

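The histone genes of mouse embryonic stem (ES) cells were examined in cells without Dgcr8, in cells without Dicer and in wild-type cells. Members were chosen by symbol alone, as every row of the array table whose gene symbol begins as a histone H1, H2A, H2B, H3 or H4 gene, and 94 of 35557 rows met this rule. Of these, 92 entered the comparison with 23000 annotated transcripts, and 2 Y-linked rows, both for H2A genes of the testis, were left out together with all other Y-linked rows. The 94 rows carry 98 different histone symbols: 45 symbols have a row of their own, and 53 appear only in rows that several near-identical genes share. Another 12 RefSeq histone symbols had no row.

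The study set out to find mRNAs that the Microprocessor, the complex of Dgcr8 and Drosha, destabilises directly. It profiled total RNA of Dgcr8 KO, Dicer KO and WT ES cells on Affymetrix mouse gene ST 1.0 arrays, with 3 arrays per genotype. Dgcr8 KO cells lack the RNA-binding partner of Drosha and Dicer KO cells lack the enzyme encoded by Dicer1. WT cells are the v6.5 line, and no group received a treatment. For neither knockout do the sources used here give the parent line or the number of clones. The methods call the replicates biological, but by the labels they could be plates of 1 line, in which case the p-values cover the spread between plates only. Both knockout comparisons use the same WT arrays.

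Histones package DNA into nucleosomes. An H2A, H2B, H3 and H4 octamer forms the core and a linker H1 binds where DNA enters and leaves it. Most histone genes lie in clusters without introns, are transcribed in S phase together with DNA replication, and give mRNAs that end in a stem-loop instead of a poly(A) tail. The replacement variants H2A.Z and H3.3 are encoded by separate genes with introns, have polyadenylated mRNAs and are made through the whole cell cycle. A further group of variants is made mainly in oocytes or in the testis. ES cells divide rapidly and spend much of their cycle in S phase.

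The 92 rows were described in 3 classes: 58 rows of cluster genes (31 with 1 symbol, 27 shared), 13 rows of replacement variants and 21 rows of germ cell variants. The replacement class holds every member that is neither a cluster nor a germ cell gene. It thus includes H2ax, H2aj and H1f10, for which the description of H2A.Z and H3.3 above need not hold. In this array design a shared row cannot be assigned to any of its genes. The values are log2 levels as normalised by the authors, and a difference of 1 is a doubling. A row was called where limma gave a Benjamini-Hochberg adjusted p under 0.05 over all 23000 transcripts. Each array holds the RNA of a whole plate, so fewer cells in S phase and less histone RNA per cell cannot be told apart.

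The promoters of 4 cluster genes and 1 replacement gene on which the results turn show the short motifs typical of the family. Each line gives the 250 bases before the RefSeq transcription start (GRCm38.p6, gene strand), with motifs on either strand in capitals. The motif CCAAT is the CCAAT box, which reads ATTGG on the other strand. The motif TATAAA is a TATA box and reads TTTATA on the other strand. The motif ATTTGCAT is the octamer that Oct factors bind in H2B promoters, and it reads ATGCAAAT on the other strand. All 5 genes lie on the plus strand.
H1f2, chr13:23738557-23738806: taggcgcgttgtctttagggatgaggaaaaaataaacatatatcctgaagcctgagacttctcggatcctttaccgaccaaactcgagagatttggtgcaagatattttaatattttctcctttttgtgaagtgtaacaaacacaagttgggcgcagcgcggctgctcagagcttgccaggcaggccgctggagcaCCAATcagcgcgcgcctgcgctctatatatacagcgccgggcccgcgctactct
H2ac1, chr13:23934187-23934436: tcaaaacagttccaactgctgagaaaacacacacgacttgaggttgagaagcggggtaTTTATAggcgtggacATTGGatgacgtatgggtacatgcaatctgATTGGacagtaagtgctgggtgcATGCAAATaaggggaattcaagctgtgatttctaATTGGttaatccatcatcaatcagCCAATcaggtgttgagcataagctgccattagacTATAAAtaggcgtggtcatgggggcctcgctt
H2bc18, chr3:96269450-96269699: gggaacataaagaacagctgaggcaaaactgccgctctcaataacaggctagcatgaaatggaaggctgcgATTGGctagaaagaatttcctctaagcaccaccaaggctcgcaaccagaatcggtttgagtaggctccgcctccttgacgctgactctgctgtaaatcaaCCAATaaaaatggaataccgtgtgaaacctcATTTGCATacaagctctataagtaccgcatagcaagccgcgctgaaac
H2aw, chr11:58954435-58954684: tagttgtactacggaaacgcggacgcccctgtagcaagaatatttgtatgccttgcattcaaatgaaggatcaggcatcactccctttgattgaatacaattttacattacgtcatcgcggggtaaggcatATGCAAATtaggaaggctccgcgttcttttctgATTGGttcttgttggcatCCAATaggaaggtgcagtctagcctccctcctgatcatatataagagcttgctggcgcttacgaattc
H2az1, chr3:137864237-137864486: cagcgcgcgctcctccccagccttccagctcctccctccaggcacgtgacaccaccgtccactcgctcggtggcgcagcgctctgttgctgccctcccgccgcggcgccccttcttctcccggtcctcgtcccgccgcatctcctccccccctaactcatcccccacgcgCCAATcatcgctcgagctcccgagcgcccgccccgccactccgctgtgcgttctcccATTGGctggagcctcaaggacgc

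Of the 98 symbols, 90 had a promoter in the RefSeq table, with 91 windows in all, each reaching from 250 bases before to 50 bases after the start. Searched on both strands, CCAAT stood in 85.5% of the 62 cluster promoters and in 37.4% of all 32851 promoters. TATAAA stood in 56.5% of the cluster promoters against 13.6% of all, and ATTTGCAT in 22.6% against 1.74%. The families differed in these letters. All 6 H1, 18 H2A, 16 H2B and 10 H3 cluster promoters held CCAAT, while 3 of 12 H4 promoters did. The octamer was found in 7 of 18 H2A and 7 of 16 H2B promoters and in no H1, H3 or H4 promoter. Neighbouring H2A and H2B genes that are read in opposite directions share part of their windows, so these counts are not of independent sequences. Of the 6 replacement promoters 5 held CCAAT and 1 held TATAAA, and of the 23 germ cell promoters 5 held CCAAT and 2 held TATAAA. H2ac1 and H2bc1, the testis pair, lie 280 bases apart on chromosome 13 and are read away from each other, so the stretch printed above for H2ac1 also lies upstream of H2bc1. A match in these windows is a description of letters and not of a bound site.

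Facts of the whole series were as follows. Array medians lay between 6.49 and 6.56, and correlations over all rows were 0.989 to 0.994 within a genotype and 0.975 to 0.987 between genotypes. Dgcr8 was at 8.74, 8.96 and 8.86 in Dgcr8 KO cells, against 9.76 to 9.82 in WT cells, and Dicer1 was at 8.33, 8.43 and 8.32 in Dicer KO cells, against 10.18 to 10.24 in WT cells. Each targeted gene was thus lowest in its own knockout, though whether its probes lie in the deleted part was not examined. All 12 rows of ES cell markers, Pou5f1 and Nanog among them, lay above the median transcript. The summed log2 level of 9 fibroblast marker rows was 48.1 to 50.3 in Dgcr8 KO, 48.8 to 49.8 in Dicer KO and 49.1 to 51.3 in WT arrays, so these groups overlapped. That of 7 primitive endoderm marker rows was 39.4 to 40.5 in Dgcr8 KO, 38.9 to 39.2 in Dicer KO and 40.4 to 41.5 in WT arrays, so the Dicer KO arrays lay below WT. Dab2 of this list fell by 1.13 and 1.15 on 1 of its 2 rows, Gata4 rose by 0.35 in Dgcr8 KO cells, and the other rows were not called against WT. The part of such cells in the histone values was not tested.

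The row levels of the classes are given as a description, since levels of different rows are not on 1 scale. The median transcript had a mean level of 6.92 over the 9 arrays. Cluster rows with 1 symbol had a median of 8.40 (3.75 to 12.31), shared cluster rows 12.93 (6.33 to 13.59) and replacement rows 10.78, with H3f3a's own row lowest at 5.25. Germ cell rows lay at 6.19 (4.86 to 7.01), with 1 of 21 above the median transcript. The 4 brightest cluster rows with 1 symbol were the somatic linker histones H1f5 and H1f1 and the H4 genes H4c4 and H4c14. All 10 shared H3 rows, each listing 12 H3 genes, lay between 13.08 and 13.52. Of the 31 cluster rows with 1 symbol 12 lay below the median transcript, among them all 3 H3 rows. The highest value in the table was 14.99.

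**Figure D1:**
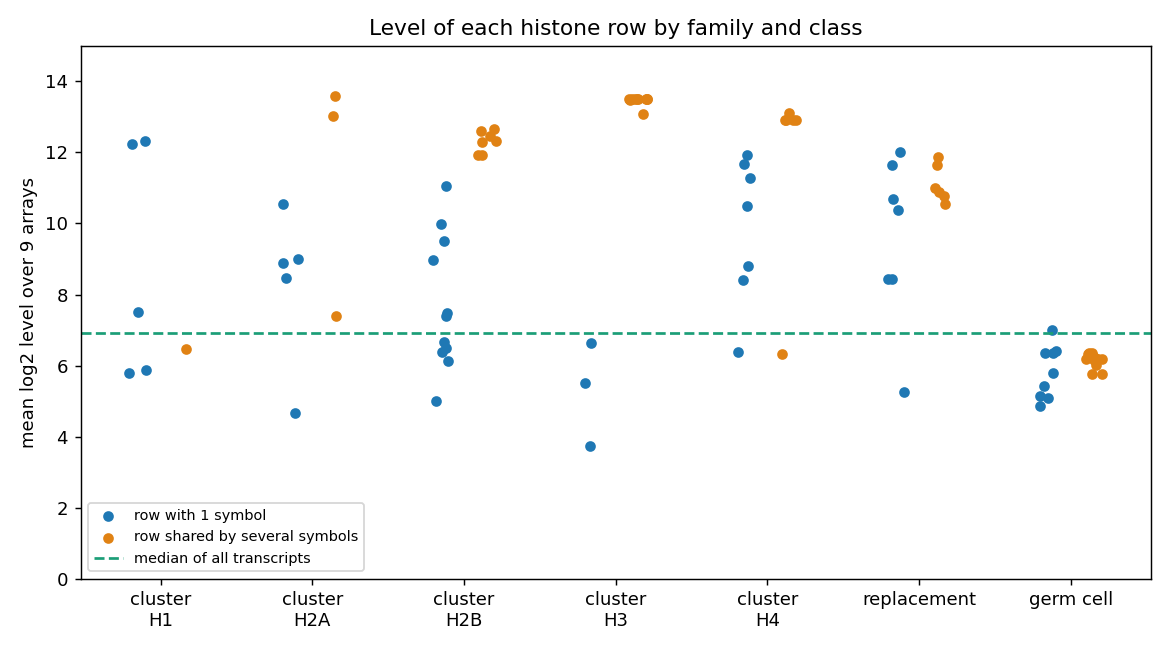
Mean log2 level over the 9 arrays (vertical axis) of each of 92 histone rows, by cluster family and by class (horizontal axis), with rows of 1 symbol in blue and shared rows in orange. Shared H3 rows sit between 13.08 and 13.52, and 20 of 21 germ cell rows sit below the dashed line at 6.92, the median of all transcripts.

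In Dgcr8 KO cells cluster histone rows were more often called lower than higher. Of the 31 cluster rows with 1 symbol, 1 rose and 9 fell. Over all 23000 transcripts 15.7% were called higher and 17.3% lower in this comparison. The 9 rows that fell are 29% of the 31, and their class had a median log2 ratio of -0.14, beside -0.01 for all transcripts. The 31 include 3 testis variants, of which 2 fell. They also include 6 genes whose mRNA can be polyadenylated outside S phase, of which 1 rose and 2 fell. Of the other 22 rows none rose and 5 (22.7%) fell, with a median of -0.14. The share called depends on the level. Among transcripts with a mean level of at least 8, 25.7% were called higher and 31.9% lower, and of the 16 cluster rows at such levels none was called higher and 5 (31.2%) lower. Over all 40 cluster rows at such levels, shared rows included, none was called higher and 5 (12.5%) lower. At this level lower calls were thus no more frequent than among all transcripts of that level, and no row was called higher. Of the 27 shared cluster rows, none was called higher and 3 lower, with a median of 0.02. Over all 58 cluster rows the split was 1 higher and 12 lower, and 3 and 12 with cyclic loess or 3 and 11 with quantile normalization applied again.

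In Dicer KO cells the same classes had more lower calls. Of the 31 cluster rows with 1 symbol, 3 rose and 13 fell (41.9%), and their median log2 ratio was -0.20, beside -0.06 for all transcripts. All 3 testis variants among them fell, and of the 6 polyadenylated genes 2 rose and 2 fell. Of the other 22 rows 1 rose and 8 (36.4%) fell, with a median of -0.17. Over all transcripts 17.8% were called higher and 19.1% lower. At a mean level of at least 8 the background was 31.6% higher and 27.8% lower, and of the 16 cluster rows at such levels none was called higher and 9 (56.2%) lower. Over all 40 cluster rows at such levels none was called higher and 14 (35%) lower. Of the 27 shared rows none rose and 7 fell, with a median of -0.08. All 27 had log2 ratios below 0, the least of them -0.0037. With each array centred on its median, 10 of the 31 rows and 1 of the 27 shared rows were called lower.

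Of the 31 cluster rows with 1 symbol, 7 were called lower in both knockouts and 1 was called higher in both. The share of all transcripts called in both was not counted. Because the 2 comparisons also use the same WT arrays, these joint counts are a description only. A further 2 were called in Dgcr8 KO cells only and 8 in Dicer KO cells only, which does not show that the knockouts differ there. The direct contrast of the knockouts tests that. It called 11.2% of all transcripts higher and 13.4% lower in Dgcr8 KO cells, and 1 of the 31 rows higher and 2 lower. Over all 58 cluster rows the split was 4 higher and 2 lower, and it turned with scaling: 17 and 3 with cyclic loess, 13 and 3 with quantile normalization, and 1 and 3 when arrays were centred on their medians.

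**Figure D2:**
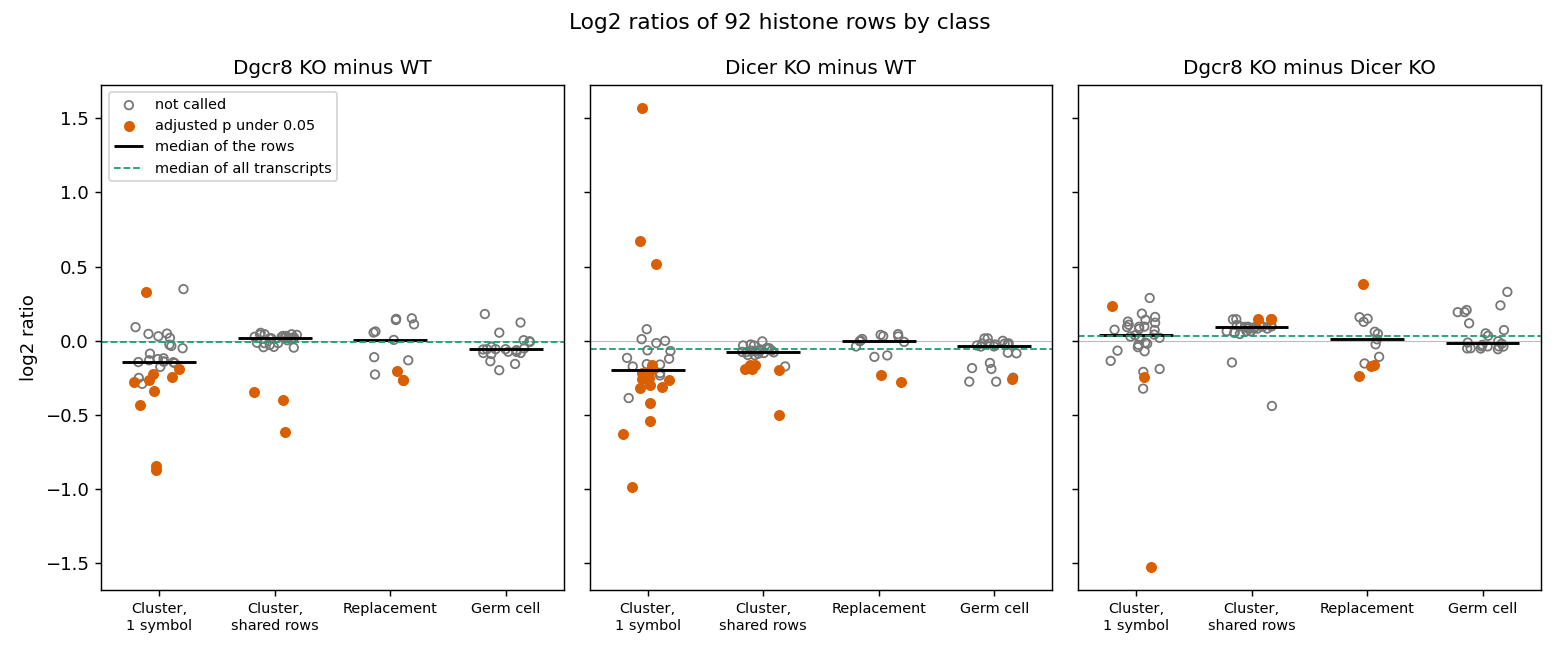
Log2 ratio (vertical axis) of each histone row by class, in 1 panel for each knockout against WT and 1 for Dgcr8 KO minus Dicer KO, with filled points where limma's adjusted p was under 0.05. H2bc4 stands alone at 1.57 in Dicer KO minus WT and at -1.52 in the direct contrast, and cluster rows with 1 symbol have medians of -0.14 and -0.20 in the knockout comparisons.

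**Figure D3:**
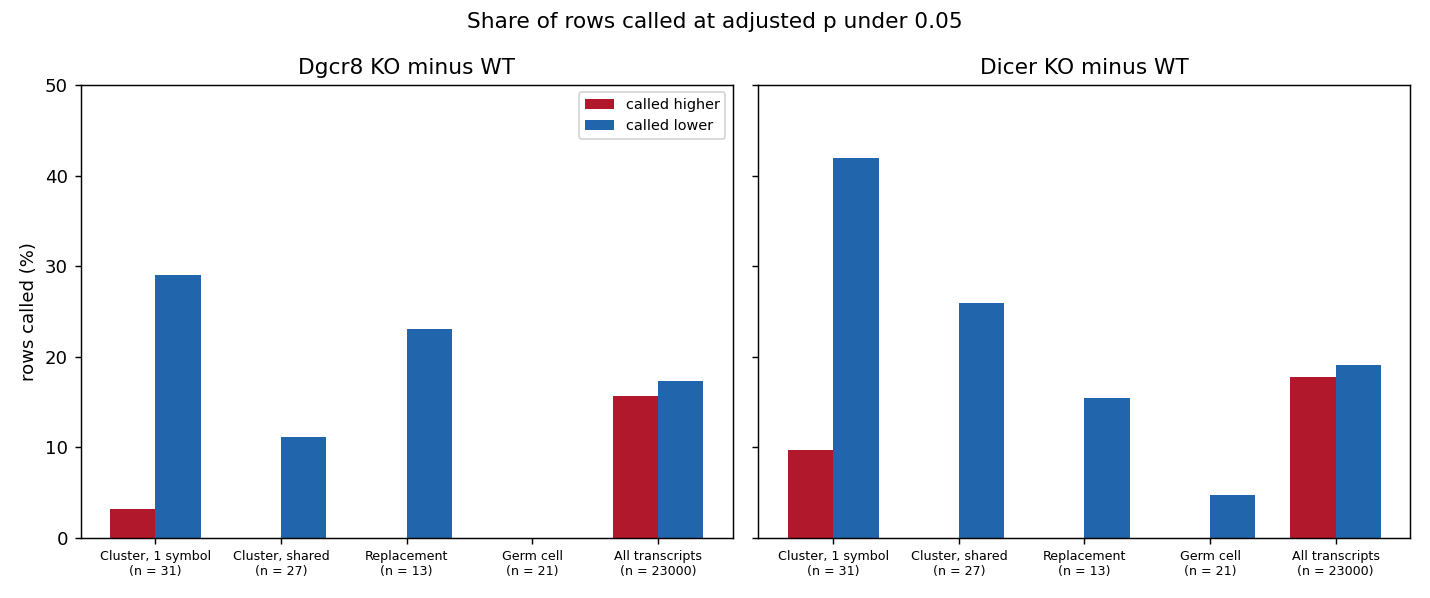
Percent of rows called higher (red) and lower (blue) in Dgcr8 KO minus WT and in Dicer KO minus WT, for each class and for all 23000 transcripts. Lower calls reach 29% and 41.9% of the cluster rows with 1 symbol, beside 17.3% and 19.1% of all transcripts.

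The H2B gene H2bc4 (older name Hist1h2bc), whose mRNA can also be made with a poly(A) tail outside S phase, had the largest log2 ratio of all members, and it was called in Dicer KO cells alone. Its log2 levels were 5.77, 6.65 and 6.13 in Dgcr8 KO cells, 7.89, 7.69 and 7.53 in Dicer KO cells, and 6.03, 6.34 and 6.05 in WT cells. The 3 Dicer KO arrays lay above all other arrays, and the Dgcr8 KO arrays spread on both sides of the WT arrays. The difference from WT was 1.57 ± 0.20 (SE) in Dicer KO cells, a 2.97-fold rise (limma, adjusted p = 0.00018), and 0.05 ± 0.20 in Dgcr8 KO cells (adjusted p = 0.9). The direct contrast of Dgcr8 KO with Dicer KO was -1.52 ± 0.20 (adjusted p = 0.00047). The mean levels of this row in WT (6.14) and Dgcr8 KO cells (6.18) lay below the median transcript (6.92). H2bc4 is also listed in the 7 shared H2B rows, each of 14 or 15 symbols, which stood at -0.07 to -0.03 in Dicer KO cells. The rise thus rests on 1 row. RefSeq gives H2bc4 a gene of 8282 bases (chr13:23684199-23692480, GRCm38.p6), and the median cluster gene with a row spans 504 bases. H2bc22 (14079 bases) and H2bc21 (2667 bases), named here for their length, did not rise. H2bc22 was called lower in Dgcr8 KO cells (-0.24) and not called in Dicer KO cells (-0.17), and H2bc21 was called in neither.

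H1f2 (Hist1h1c, a somatic linker histone) was the only cluster row with 1 symbol called higher in both knockouts. Its levels were 7.55, 7.62 and 7.50 in Dgcr8 KO cells, 7.65, 7.82 and 7.77 in Dicer KO cells, and 7.14, 7.20 and 7.33 in WT cells. No knockout array overlapped the WT arrays. The differences from WT were 0.33 ± 0.07 and 0.52 ± 0.07 (SE; limma, adjusted p = 0.0038 and 0.0002), and the knockouts differed from each other by -0.19 ± 0.07 (adjusted p = 0.069). H2bc4 and H1f2 belong to a list of cluster genes whose mRNA is known to be polyadenylated outside S phase, of which 6 have a row of their own. The other 4 were not higher. H2aw and H2bu2, the H2A and H2B genes of the small cluster on chromosome 11, were called lower in both knockouts, while H2bc21 and H4c8 were not called, at -0.14 and 0.09 in Dgcr8 KO cells and -0.23 and -0.07 in Dicer KO cells.

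H3c15, an H3 gene of the chromosome 3 cluster, was the third row called higher in Dicer KO cells. Its levels were 5.54, 5.51 and 5.50 in Dgcr8 KO cells, 6.26, 5.51 and 5.74 in Dicer KO cells, and 5.03, 5.46 and 5.01 in WT cells. All knockout arrays lay above the WT arrays, the closest by a few hundredths. The differences were 0.35 ± 0.18 (limma, adjusted p = 0.19) and 0.67 ± 0.18 (adjusted p = 0.016), and the call in Dicer KO cells was lost without WT replicate 1 or WT replicate 3.

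The cluster genes that fell most were H2bc18 and H2ac1. H2bc18 (Hist2h2bb), an H2B gene of the chromosome 3 cluster, was at 8.55, 8.65 and 8.62 in Dgcr8 KO cells, 8.83, 8.85 and 8.85 in Dicer KO cells, and 9.42, 9.50 and 9.50 in WT cells. The 3 genotypes did not overlap. It was 1.83-fold lower in Dgcr8 KO cells (log2 difference -0.87 ± 0.05, limma, adjusted p = 9.9e-07) and 1.55-fold lower in Dicer KO cells (-0.63 ± 0.05, adjusted p = 5.5e-06), with a direct contrast of -0.24 ± 0.05 (adjusted p = 0.0047).

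H2ac1 encodes TH2A, an H2A variant of the testis and the oocyte that pairs with TH2B, the product of its neighbour H2bc1. H2ac1 was at 8.27, 8.22 and 8.19 in Dgcr8 KO cells, 8.05, 8.16 and 8.04 in Dicer KO cells, and 9.17, 9.08 and 8.96 in WT cells. It was 1.80-fold lower in Dgcr8 KO cells and 1.98-fold lower in Dicer KO cells (log2 differences -0.84 ± 0.06 and -0.99 ± 0.06, limma, adjusted p = 6.7e-06 and 1.9e-06). H2bc1 was at 7.41, 7.45 and 7.19 in Dgcr8 KO cells, 7.44, 7.40 and 7.29 in Dicer KO cells, and 7.68, 7.70 and 7.69 in WT cells. Every knockout array lay below every WT array for both genes. H2bc1 fell by 0.34 in Dgcr8 KO cells and by 0.31 in Dicer KO cells. SAM, the permutation test named in the methods, did not make the Dgcr8 KO call at a false discovery rate of 5%. It was rewritten here from its description, and the package that the study used was not run.

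The linker histone of spermatocytes, H1f6, was also at a low level, with 5.70, 5.67 and 6.03 in Dgcr8 KO cells, 5.48, 5.39 and 5.67 in Dicer KO cells, and 6.07, 6.15 and 5.92 in WT cells. It was called in Dicer KO cells (-0.54 ± 0.11, limma, adjusted p = 0.0039) and not in Dgcr8 KO cells (-0.25 ± 0.11, adjusted p = 0.13). Of the 8 germ cell marker rows, 1 rose and 2 fell in Dgcr8 KO cells and 1 rose in Dicer KO cells. These were Dazl (0.32 and 0.56, called in both knockouts), Sycp3 (-0.76 in Dgcr8 KO, and -0.41 in Dicer KO, not called) and Ddx4 (-0.35, and -0.22, not called), of which only Ddx4, with a WT mean of 8.78, lay above the median transcript. The summed log2 level of the list was 47.8 to 48.4 in Dgcr8 KO, 47.9 to 48.4 in Dicer KO and 48.7 to 49.0 in WT arrays. The genes of spermatid packaging proteins (Tnp1, Tnp2, Prm1 and Prm2) had WT means of 5.35, 5.63, 5.68 and 6.81, below the median transcript, and none of them was called. The part of germ cell transcripts in the H2ac1 and H2bc1 values was not tested.

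**Figure D4:**
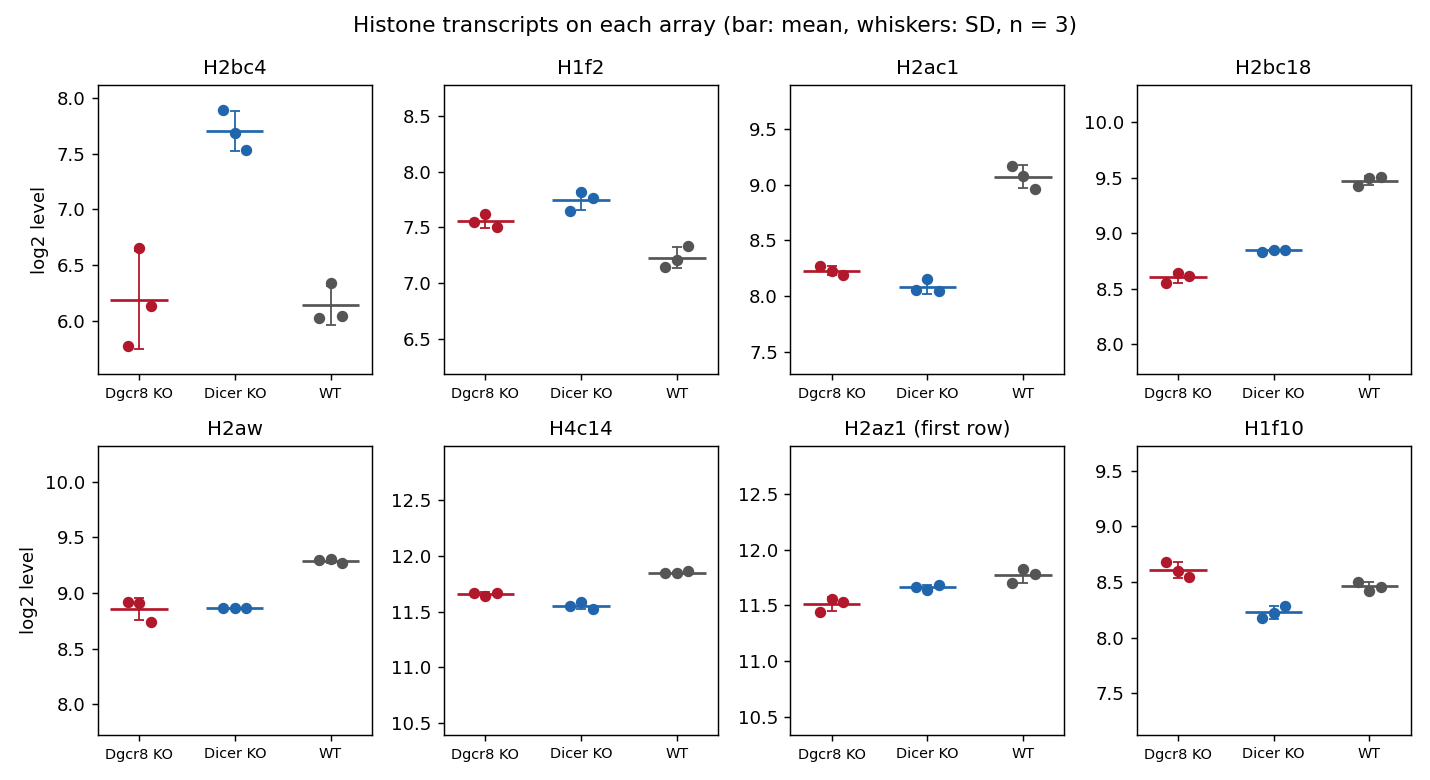
Log2 level (vertical axis, each panel spanning the same range) on each of the 9 arrays for 8 histone rows, by genotype, with the mean and SD of 3 arrays. H2bc4 is high in Dicer KO cells alone, H1f2 is higher in both knockouts, and H2ac1, H2bc18, H2aw and H4c14 are lower in both, with the Dgcr8 KO level of H2bc18 (8.55 to 8.65) below the Dicer KO level (8.83 to 8.85).

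The genes of the small cluster on chromosome 11 were lower together. H2aw (Hist3h2a) was at 8.92, 8.91 and 8.74 in Dgcr8 KO cells, 8.87, 8.87 and 8.87 in Dicer KO cells, and 9.29, 9.30 and 9.27 in WT cells. The knockout arrays overlapped each other and lay below the WT arrays. The differences were -0.43 ± 0.05 and -0.42 ± 0.05 (limma, adjusted p = 0.00021 and 0.00022). H2bu2 (Hist3h2ba) was lower by log2 differences of -0.28 ± 0.09 and -0.32 ± 0.09, and the pseudogene H2bu1-ps, named after its values were seen because it completes the locus, by -0.26 ± 0.06 and -0.22 ± 0.06. The call of H2bu2 in Dgcr8 KO cells (limma, adjusted p = 0.038) was lost without any 1 of 6 arrays (WT replicate 1 or 2, Dgcr8 KO replicate 2 or any Dicer KO replicate), with SAM, in the fit of the 6 arrays, over all rows of the table and with array weights, with adjusted p up to 0.14. The call in Dicer KO cells (limma, adjusted p = 0.019) was lost without WT replicate 1 or 2 or Dicer KO replicate 1 or 2, with adjusted p up to 0.065. A further row that H2aw shares with Trim17 fell by 0.40 in Dgcr8 KO cells and by 0.50 in Dicer KO cells.

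On the large cluster of chromosome 13 the calls were as follows, beside 15.7% higher and 17.3% lower over all transcripts in Dgcr8 KO cells and 17.8% and 19.1% in Dicer KO cells. Beside the testis pair, its part from H2bc22 to H2ac15 and the neighbouring genes (chr13:21722044-22041362) has 5 rows with 1 symbol, of which none rose and 1 fell in Dgcr8 KO cells, and none rose and 2 fell in Dicer KO cells. The part that holds H1f1, H1f2 and H2bc4 (chr13:23531044-23764412) has 16 such rows, of which 1 rose and none fell in Dgcr8 KO cells, and 2 rose and 4 fell in Dicer KO cells. On chromosome 3 (96221072 to 96270192) there are 4 rows, of which 2 fell in each knockout and 1 rose in Dicer KO cells. These parts were outlined from the gene positions, and no test compared them with each other.

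Among cluster genes at high row levels the log2 ratios were small. Of the 8 rows with 1 symbol at a level of at least 10, none was called higher and 2 (25%) lower in Dgcr8 KO cells, and none higher and 5 (62.5%) lower in Dicer KO cells, beside 33.6% and 27.9% lower among all transcripts at that level. H4c14, an H4 gene, was at 11.67, 11.64 and 11.67 in Dgcr8 KO cells, 11.55, 11.58 and 11.53 in Dicer KO cells, and 11.84, 11.85 and 11.86 in WT cells. The genotypes did not overlap, and the differences from WT were -0.19 ± 0.04 and -0.30 ± 0.04 (limma, adjusted p = 0.0057 and 0.00033). The call in Dgcr8 KO cells was lost with SAM and with quantile normalization applied again (-0.10, adjusted p = 0.07). H1f5, a somatic linker histone, was at 12.36, 12.32 and 12.26 in Dgcr8 KO cells, 12.18, 12.22 and 12.15 in Dicer KO cells, and 12.41, 12.43 and 12.46 in WT cells. It was called in Dicer KO cells (-0.25 ± 0.05, adjusted p = 0.0026) and not in Dgcr8 KO cells (-0.12 ± 0.05, adjusted p = 0.092), and the direct contrast did not pass (0.13 ± 0.05, adjusted p = 0.079). The linker gene H1f1 and the H4 gene H4c4 were called in Dicer KO cells only, at -0.16 ± 0.05 and -0.20 ± 0.06, beside -0.14 ± 0.05 and -0.12 ± 0.06 in Dgcr8 KO cells. Both calls were lost with SAM, when arrays were centred on their medians, and without WT replicate 3, Dicer KO replicate 1 or Dicer KO replicate 3, and that of H1f1 also without WT replicate 2.

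H2bc9, an H2B gene, was the 1 cluster row with 1 symbol called higher in Dgcr8 KO than in Dicer KO cells. It was at 9.62, 9.49 and 9.60 in Dgcr8 KO cells, 9.36, 9.39 and 9.25 in Dicer KO cells, and 9.64, 9.58 and 9.57 in WT cells. The Dgcr8 KO arrays overlapped the WT arrays (-0.03 ± 0.06) and the Dicer KO arrays lay below them (-0.26 ± 0.06, limma, adjusted p = 0.0054). The contrast between the knockouts was 0.24 ± 0.06 (adjusted p = 0.015), which reached an adjusted p of at most 0.059 without Dgcr8 KO replicate 1 or 3 or Dicer KO replicate 3.

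Shared cluster rows held 24 rows of 11 to 20 symbols each at levels of 11.93 to 13.59. Among all transcripts at a level of at least 12, 5.49% were called higher and 15.9% lower in Dgcr8 KO cells. The shares at that level were 11.6% and 12% in Dicer KO cells, and 3.14% and 14.5% in the direct contrast. In Dgcr8 KO cells none of the 24 was called and their ratios lay between -0.05 and 0.05. In Dicer KO cells the 7 H2B rows (-0.07 to -0.03), the 10 H3 rows (-0.10 to -0.06) and the 2 H2A rows (-0.02 and -0.0037) were not called, and the 5 H4 rows, which list 11 H4 genes, were all called lower (-0.19 to -0.16). Of the 27 shared rows, the 7 called lower in Dicer KO cells became 3 without WT replicate 3 or Dicer KO replicate 2 or 3, 4 without Dicer KO replicate 1, 3 with cyclic loess, and 1 with SAM. In the contrast of Dgcr8 KO with Dicer KO, 3 of these 5 H4 rows were called higher (0.14 to 0.15 over the 5). Without any 1 array other than WT replicate 1, at most 1 cluster row of any kind was called higher in this contrast. Rows of 1 family overlap in their probes or hold the same values, and they are not independent counts. The 92 fitted rows hold 87 different sets of values.

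The 3 shared cluster rows of 2 symbols lay at 6.33 to 7.40. All 3 fell in Dgcr8 KO cells (-0.61 to -0.34), and 2 fell in Dicer KO cells, beside 17.3% and 19.1% lower over all transcripts. Among the 3 is the row that H2aw shares with Trim17, whose symbol is not that of a histone gene. The row of H2bc6 and H1f4 was at 6.46, 6.24 and 6.24 in Dgcr8 KO cells, at 6.46 on each Dicer KO array, and at 6.62, 6.68 and 6.67 in WT cells. The value of 6.46 was identical to the last deposited digit on these 4 knockout arrays.

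**Figure D5:**
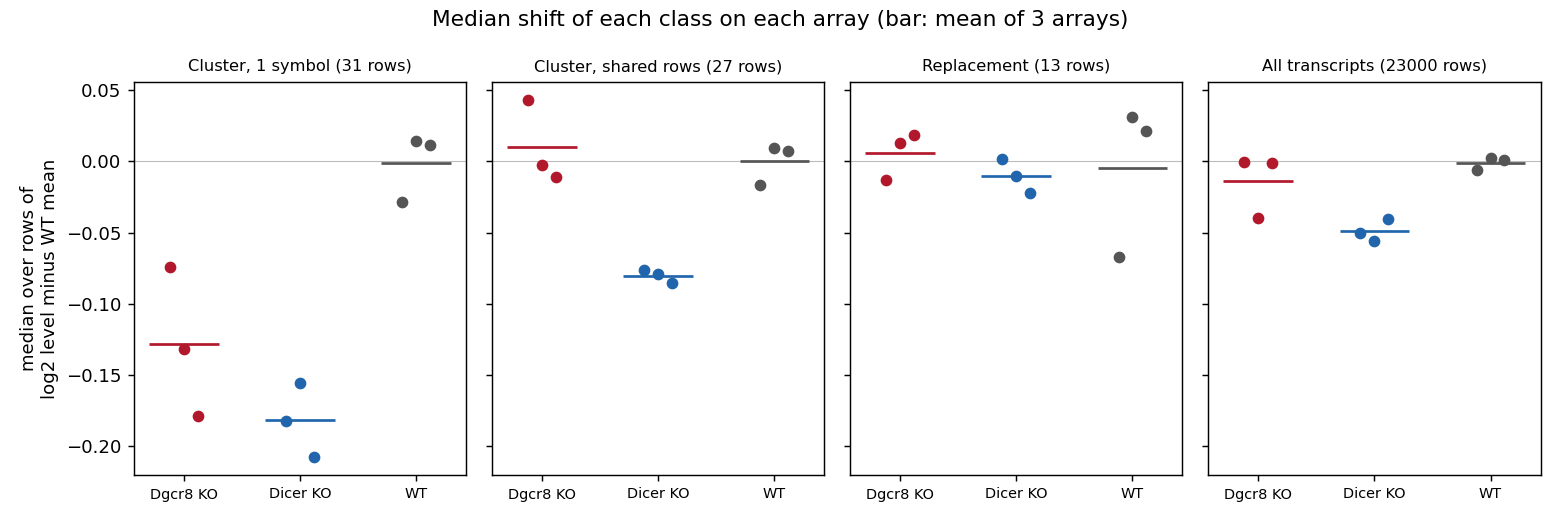
Median over rows of the log2 level minus the WT mean (vertical axis) on each of the 9 arrays, for cluster rows with 1 symbol, shared cluster rows, replacement rows and all 23000 transcripts, with bars at the mean of 3 arrays. Cluster rows with 1 symbol lie between -0.07 and -0.18 on Dgcr8 KO arrays and between -0.16 and -0.21 on Dicer KO arrays, and shared rows lie below all WT arrays on the Dicer KO arrays only. The medians of all transcripts on the Dicer KO arrays (-0.06 to -0.04) also lie below all WT arrays.

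On single arrays the median of the 31 cluster rows, taken against the WT mean of each row, was -0.07, -0.13 and -0.18 in Dgcr8 KO cells, -0.18, -0.16 and -0.21 in Dicer KO cells, and -0.03, 0.01 and 0.01 in WT cells. All 6 knockout arrays lay below the 3 WT arrays. Over all transcripts such medians were -0.05, -0.06 and -0.04 in Dicer KO cells, also below the 3 WT arrays (-0.0059 to 0.0021). In Dgcr8 KO cells they were -0.0004, -0.04 and -0.0011. The 13 replacement rows stood at -0.01, 0.01 and 0.02 in Dgcr8 KO cells, 0.0017, -0.01 and -0.02 in Dicer KO cells, and -0.07, 0.03 and 0.02 in WT cells, where the WT arrays spanned both knockouts.

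Of the 13 replacement rows, none rose and 3 fell (23.1%) in Dgcr8 KO cells, and none rose and 2 fell (15.4%) in Dicer KO cells, beside 17.3% and 19.1% lower over all transcripts. The medians of the class were 0.01 and -0.0026. Over its 7 rows with 1 symbol they were -0.11 and -0.098, beside -0.14 and -0.20 for cluster rows with 1 symbol. For the 9 germ cell rows with 1 symbol they were -0.08 and -0.19. The replacement rows that fell were different ones, with no row called in both knockouts. With cyclic loess applied again to the arrays, 5 of the 13 were called higher and 2 lower in Dgcr8 KO cells, and with quantile normalization 3 and 3, so the direction of this class in Dgcr8 KO cells is not settled by these data.

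H2az1, which encodes H2A.Z, a variant found at promoters, has 2 rows. The first was at 11.44, 11.55 and 11.54 in Dgcr8 KO cells, 11.66, 11.64 and 11.68 in Dicer KO cells, and 11.70, 11.83 and 11.78 in WT cells. The second was at 11.80, 11.90 and 11.89 in Dgcr8 KO cells, 12.03, 12.02 and 12.03 in Dicer KO cells, and 12.06, 12.20 and 12.12 in WT cells. On both rows the Dgcr8 KO arrays were lowest and the Dicer KO arrays lay between them and WT. Both fell in Dgcr8 KO cells, by log2 differences of -0.26 ± 0.05 (limma, adjusted p = 0.0039 and 0.0033), and neither was called in Dicer KO cells (-0.11 and -0.10). The direct contrast was -0.15 (adjusted p = 0.066) on the first row and -0.16 (adjusted p = 0.047) on the second, a call that was lost without any 1 knockout array or WT replicate 3, over all rows of the table, and with cyclic loess or quantile normalization applied again. SAM called neither row in Dgcr8 KO cells against WT.

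H1f10, the H1x linker histone, differed between the knockouts. It was at 8.68, 8.60 and 8.54 in Dgcr8 KO cells, 8.17, 8.22 and 8.29 in Dicer KO cells, and 8.50, 8.42 and 8.46 in WT cells. Every Dgcr8 KO array was above and every Dicer KO array below every WT array. The difference from WT was 0.15 ± 0.05 in Dgcr8 KO cells (limma, adjusted p = 0.066) and -0.23 ± 0.05 in Dicer KO cells (adjusted p = 0.0075), and the direct contrast was 0.38 ± 0.05 (adjusted p = 0.00084). SAM did not call the Dicer KO difference.

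The H3.3 gene H3f3b, in rows shared with Gm6485, had log2 ratios of -0.13 and -0.21 in Dgcr8 KO cells, of which the second was called, and 0.04 and 0.03 in Dicer KO cells. In the direct contrast both rows were called lower in Dgcr8 KO cells, at -0.17 and -0.24. The second row had 11.41, 11.57 and 11.55 in Dgcr8 KO cells, 11.70, 11.79 and 11.75 in Dicer KO cells, and 11.68, 11.73 and 11.73 in WT cells, so that the Dgcr8 KO arrays lay below the other 6. H3f3a encodes the same H3.3 protein. None of its 4 rows shared with Gm12657 was called, nor was its own row at 5.25.

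The remaining replacement variants showed little. H2aj, an H2A variant studied in senescent human cells, was called lower in Dicer KO cells (-0.27 ± 0.08, limma, adjusted p = 0.024) and stood at -0.23 ± 0.08 in Dgcr8 KO cells (adjusted p = 0.059). The call was lost without WT replicate 2 or 3 or Dicer KO replicate 2 or 3, and when arrays were centred on their medians. H2ax, phosphorylated at DNA breaks, stood at -0.11 ± 0.07 in Dgcr8 KO cells and -0.0026 ± 0.07 in Dicer KO cells. H2az2, the second H2A.Z gene, stood at 0.01 ± 0.05 and 0.03 ± 0.05. Neither was called.

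Germ cell variants lay low in all genotypes, and 20 of the 21 rows were called in no contrast. These include the oocyte linker histone H1f8 (5.18 to 5.61 over the 9 arrays), the spermatid linker histone H1f7 (6.91 to 7.23), the testis H2A variants H2ab1, H2al2a and H2al3, and the H2B-related genes H2bfm and H2bl1. The exception was H2ap, an H2A-related gene of the X chromosome, at 5.11, 5.18 and 5.11 in Dgcr8 KO cells, 5.06, 5.11 and 4.87 in Dicer KO cells, and 5.34, 5.36 and 5.11 in WT cells. It was called lower in Dicer KO cells (-0.26 ± 0.08, limma, adjusted p = 0.038), a call that held under 6 of 22 other settings. None of the 12 rows shared by H2al1 genes was called. The 9 germ cell rows with 1 symbol all had log2 ratios below 0 in Dicer KO cells. Their median was -0.19, close to the -0.20 of the cluster rows with 1 symbol. In Dgcr8 KO cells 6 of the 9 were below 0, with a median of -0.08. On single arrays their median against the WT mean was -0.15, -0.16 and -0.19 in Dicer KO cells. It was -0.16, -0.09 and -0.01 in Dgcr8 KO cells and 0.07, -0.07 and -0.10 in WT cells.

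The factors that make and process cluster histone mRNA were counted next. These mRNAs are switched on by Npat at the histone locus body, are cut after the stem-loop by a complex that contains the U7 particle, symplekin (Sympk) and the nuclease Cpsf3, and are bound by Slbp. Of 21 rows for 18 such genes, none rose and 11 fell in Dgcr8 KO cells (52.4%, median -0.22), and 1 rose and 10 fell in Dicer KO cells (47.6%, median -0.17). The backgrounds were 17.3% and 19.1% lower over all transcripts, and 31.9% and 27.8% lower among transcripts of a mean level of at least 8. At that level 25.7% and 31.6% were called higher. Slbp, on the row that was called in both knockouts, fell by 0.43 in Dgcr8 KO cells and by 0.36 in Dicer KO cells. Its second row was called in Dgcr8 KO cells only (-0.39, and -0.16 in Dicer KO cells).

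Within this list Upf1, the helicase used in histone mRNA decay, had log2 ratios of -0.42 and -0.22, Sympk of -0.27 and -0.39, Lsm10, a subunit of the U7 particle, of -0.32 and -0.18, and Cpsf3 of -0.24 and -0.48, with the Dgcr8 KO value first. All of these were called by limma. Sympk has 2 further rows, identical to each other and below the median transcript, that were not called. Srrt, which links the cap to 3′ processing, was lower in Dicer KO cells (-0.40) and stood at -0.02 in Dgcr8 KO cells, with a called direct contrast of 0.38. Npat was not called (-0.04 and 0.09).

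Histone chaperones escort histones to DNA. Of 31 rows for 29 genes of chaperones and histone deposition, 3 rose and 17 fell in Dgcr8 KO cells (54.8% lower), and 5 rose and 12 fell in Dicer KO cells (38.7% lower), beside 31.9% and 27.8% lower among all transcripts at a level of at least 8. At that level 25.7% and 31.6% were called higher, beside 9.68% and 16.1% of these rows. The list holds 1 histone, Cenpa, without which 16 and 11 of 30 rows fell. Nasp, which holds H3 and H4 in reserve, fell by 0.54 and 0.63, and Nap1l1, a chaperone of H2A and H2B, by 0.62 and 0.56 (Dgcr8 KO value first). Set, which also binds histones, had ratios of -0.27 and -0.65 on its first row. On its second row they were -0.21, not called, and -0.50, called. Among the rows that rose were Ubn2 (0.57 and 0.32) and Ipo4 (0.15 and 0.23), called higher in both knockouts. Dnajc9, a co-chaperone of H3 and H4, was lower in Dgcr8 KO cells only (-0.38, and -0.06 in Dicer KO cells, direct contrast -0.32, called). Cenpa is the H3 variant of centromeres, and its symbol lies outside the rule. It was at 9.47, 9.58 and 9.65 in Dgcr8 KO cells, 9.54, 9.56 and 9.57 in Dicer KO cells, and 10.14, 10.09 and 10.23 in WT cells.

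Genes of DNA replication were called in both directions. Of 42 rows for 40 genes, 7 rose and 11 fell in Dgcr8 KO cells (26.2% lower), and 9 rose and 15 fell in Dicer KO cells (35.7% lower), with medians of -0.07 in each. Among all transcripts at a level of at least 8, 31.9% and 27.8% were called lower. The shares called higher at that level were 25.7% and 31.6%, beside 16.7% and 21.4% of these rows. Ccne1, a cyclin of entry into S phase, fell by 0.80 in Dgcr8 KO cells and by 0.38 in Dicer KO cells, while Ccne2, the other cyclin E gene, rose by 0.54 and 0.69. Dbf4, which activates the Cdc7 kinase at origins, fell by 0.72 and by 0.64. Pola1, a subunit of DNA polymerase alpha, rose by 0.28 and 0.68, and Mcm7, of the replicative helicase, rose by 0.46 in Dgcr8 KO cells and stood at 0.04 in Dicer KO cells. The clamp gene Pcna was not called on either of its rows (0.05 to 0.07). Whether the replication genes had a part in the histone values was not tested.

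The macroH2A genes, whose symbols also lie outside the rule, encode large H2A variants of silent chromatin. Macroh2a1 was at 10.63, 10.61 and 10.53 in Dgcr8 KO cells, 10.59, 10.54 and 10.53 in Dicer KO cells, and 10.10, 10.30 and 10.26 in WT cells. It rose by 0.37 and 0.33 (limma, adjusted p = 0.001 and 0.0018). Macroh2a2 was lower in Dicer KO cells (-0.38, adjusted p = 0.0085) and stood at 0.14 in Dgcr8 KO cells (adjusted p = 0.31). Macroh2a3 was also lower in Dicer KO cells (-0.35, limma, adjusted p = 0.011) and stood at -0.03 in Dgcr8 KO cells, with a called direct contrast of 0.33, as for Macroh2a2 (0.51).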

How the data were processed

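Total RNA was hybridised to Affymetrix mouse gene ST 1.0 arrays. The authors deposited log2 values per transcript cluster, normalised with RMA by the methods and with GCRMA by the submitters' processing notes, and tool versions were not given in the sources used here. No further scaling was applied. Of 35557 rows, 23410 had a gene symbol in the platform annotation (21789 with 1 symbol, 1621 with several). Leaving out 326 rows of miRNA genes only, 6 mitochondrial and 78 Y-linked rows left 23000. Levels of different genes are on a probe-set scale and were compared only as ranges. limma 3.58.1 (R 4.3.3) fitted a mean per genotype over 9 arrays (6 residual degrees of freedom) with Benjamini-Hochberg adjustment. Precision is limited by 3 arrays per genotype. On simulated data with 50 genes changed at each size, the fit recovered 24% of log2 changes of 0.25 and 54% of 0.5. It recovered 98% of changes of 1 and 100% of 2, with 11 false calls. Far more transcripts were called in the real data, so these shares do not carry over directly. A row that was not called may still have changed by such small amounts. H2aw, H2bu2, H2bu1-ps and H4f16 were placed with the cluster genes by their older Hist names. Variants were divided into replacement and germ cell genes by known role after the values were seen. Members and lists were chosen with earlier results of these data known. Named genes were all variants with 1 symbol, the 4 brightest cluster genes, the 4 calls of smallest adjusted p per contrast and direction, and cluster genes known as polyadenylated or testis-specific. From each context list the 4 such calls per contrast could be named, and Npat, Pcna and others were added for their role. Promoters are from RefSeq (GRCm38.p6). Alternatives covered the normalisation, the rows, the test (among them SAM, rewritten from its description) and each array. The constant that SAM adds to each SE was 0.741 in Dgcr8 KO minus WT and 0.469 in Dicer KO minus WT. It was 0.162 in the direct contrast. A constant of such size disfavours small differences, so a call lost with SAM is not a result of the study's own test.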

Additional observations from a re-analysis of the deposited data

Results flagged for a closer look

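The direct contrast of Dgcr8 KO with Dicer KO cells was called by limma for 10 histone rows, whose effects against WT differed between the knockouts in the main fit. Rows lower in Dgcr8 KO cells were H2bc4 (log2 difference -1.52), H2bc18 (-0.24), both rows of H3f3b shared with Gm6485 (-0.24 and -0.17) and the second row of H2az1 (-0.16). Rows higher in Dgcr8 KO cells were H1f10 (0.38), H2bc9 (0.24) and 3 rows shared by 11 H4 genes (0.15, 0.15 and 0.15). The 2 rows of this list that hold H4 values of 0.146 are identical on all 9 arrays. No H4 call held when any 1 array other than WT replicate 1 was left out. The call of the second H2az1 row was lost under 13 of 23 other settings. In the direct contrast 11.2% of all transcripts were called higher and 13.4% lower, above the shares among the histone rows (5.43% each way).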

How the results depend on the processing

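The p-values rest on 3 arrays per genotype, shared WT arrays and 1 value per row, and rows shared by near-identical genes limit what can be said of single genes. No named gene reversed a called direction under any of the alternatives. H2bc4 in Dicer KO cells and H2ac1 and H2bc18 in both knockouts kept their calls under every alternative run, as did the contrast of H2bc4 between the knockouts. Causes were not tested for the changes below.

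In Dgcr8 KO minus WT (main counts 1 cluster row higher and 12 lower, 0 variant rows higher and 3 lower, medians -0.031 and -0.056), 3 cluster rows were higher under cyclic loess and 3 under repeated quantile normalization, and with a 1.5-fold minimum 0 were higher and 3 lower. SAM called 6 cluster and 0 variant rows lower. The cluster median was 0.034 under loess, 0.0034 under quantile normalization and -0.14 over rows with 1 symbol. Variant rows called higher were 5 under loess, 3 under quantile normalization, 2 with an intensity trend, and 1 each with array weights, without the dimmest 25% and without WT replicate 1 and Dgcr8 KO replicate 2 together, an alternative chosen after seeing the data. Variant rows called lower were 5 without the dimmest 25%, with the trend and with weights, 0 with the 1.5-fold minimum, and 6 without these 2 arrays, where the variant median was -0.0065. Leaving out single arrays gave 0 to 1 variant rows higher (1 without Dgcr8 KO replicate 2) and 2 to 5 lower (5 without WT replicate 1), and 9 to 13 cluster rows lower.

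In Dicer KO minus WT (3 cluster rows higher and 20 lower, 3 variant rows lower, medians -0.12 and -0.028), cluster rows called lower were 11 with SAM, 11 with each array centred on its median, 13 of the rows with 1 symbol, 31 with the trend, 2 with the 1.5-fold minimum and 10 at adjusted p under 0.01. The cluster median was -0.079 under loess, -0.072 with centring and -0.20 over rows with 1 symbol. Variant rows called lower were 1 with SAM, 1 with centring, 0 with the 1.5-fold minimum and 1 at adjusted p under 0.01. The variant median was 0.034 under loess, 0.018 with centring and -0.17 over rows with 1 symbol. Leaving out single arrays gave 13 to 22 cluster rows lower (13 without Dicer KO replicate 1 or 2), cluster medians of -0.15 to -0.093, 1 to 4 variant rows lower (1 without WT replicate 2 or Dicer KO replicate 3) and variant medians of -0.074 to -0.0017.

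In Dgcr8 KO minus Dicer KO (4 cluster rows higher and 2 lower, 1 variant row higher and 3 lower, medians 0.082 and -0.0074), cluster rows called higher were 8 with SAM, 17 under loess, 13 under quantile normalization, 22 with the trend, 10 with weights, 7 without the 2 arrays, 1 each with centring, with all rows of the table and over rows with 1 symbol, and 0 each with the 1.5-fold minimum and at adjusted p under 0.01. Cluster rows called lower were 5 with SAM, 4 with weights, 4 without the 2 arrays and 1 with the 1.5-fold minimum. The cluster median was 0.11 under loess, 0.029 with centring and 0.038 over rows with 1 symbol. Variant rows called higher were 2 in the fit of the 6 arrays, 5 with SAM, 3 each under loess, under quantile normalization, without the dimmest 25% and with the trend, 5 with weights, 0 with the 1.5-fold minimum and 5 without the 2 arrays. Variant rows called lower were 1 each under loess, under quantile normalization and over rows with 1 symbol, and 0 each with the 1.5-fold minimum and at adjusted p under 0.01. The variant median was -0.048 under loess, -0.061 with centring and 0.095 over rows with 1 symbol. Leaving out single arrays gave 0 to 6 cluster rows higher (6 without WT replicate 1, and 0 or 1 without any other array), 1 to 4 variant rows higher (2 to 4 without WT replicate 1, Dgcr8 KO replicate 2 or Dicer KO replicate 3), 0 to 4 lower (0 without Dicer KO replicate 2, and 1 without Dgcr8 KO replicate 1 or Dicer KO replicate 3) and variant medians of -0.059 to 0.037.

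Same-numbered arrays of different genotypes correlated at -0.2 to 0.344 in their deviations from the genotype means and differently numbered ones at -0.465 to 0.317, so the numbers were not taken to pair the arrays. With the replicate block, cluster rows called higher in Dgcr8 KO minus Dicer KO were 1 and variant rows called higher 3, and the other counts stayed within 1.5 times. The calls of H2bu2 in Dgcr8 KO minus WT and of the second H2az1 row in the direct contrast were not made with the block.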
